A study of Mus musculus with 2 samples.

Results

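Promoters of autosomal protein-coding genes were sorted by the number of CpGs (a cytosine followed by a guanine) around the CpG-denser end of the gene, and 3244 promoters of intermediate CpG number were described. A promoter belonged to this class when the 1 kb window centred on the denser end, 500 bp to each side, held 20 to 39 CpGs, at least 5 of them covered, with at least 20 read counts. Of 20661 autosomal protein-coding genes, 18754 had a measured window. Of the 3291 genes with that CpG number, 47 were left out for too few reads or covered CpGs. The class was set beside 5179 CpG-poor windows (fewer than 20 CpGs) and 10331 CpG-rich windows (40 CpGs or more). Membership used the genome sequence and the depth, and no methylation value.

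The data are whole-genome bisulfite sequencing of epiblast at embryonic day 6.5, from wild-type female (XX) embryos of the mouse strain C57Bl6/J. The labels list 2 samples, from natural matings and without embryo culture; epiblasts were separated by hand from the extraembryonic tissue, which was also used to sex the embryos by PCR. Bisulfite converts unmethylated cytosine to uracil, which is read as thymine, so each read of a CpG is counted as methylated or unmethylated. Both samples are in 1 table without sample columns. There is therefore no replicate error, no test between samples was possible, and every interval below covers counting error or the spread over promoters only. How many embryos were pooled is not given in the sources used here, and the identity of the tissue cannot be checked by gene expression in a methylation table.

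Methylated cytosine in a promoter is generally associated with a silent gene, and CpG-dense promoters (CpG islands) are typically kept free of it while CpG-poor promoters carry it. Promoters between these classes can be in either state. In the mouse embryo, the genome is stripped of most methylation after fertilization and is methylated again around implantation by the de novo enzymes DNMT3A and DNMT3B, so that the epiblast just before gastrulation has largely regained it. Promoters of many germline genes are known targets of lasting silencing in this wave, and imprinted genes carry methylation on the copy from a single parent.

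The following 5 promoters are shown because they have nearly the same number of CpGs and lie at opposite sides of the level distribution. They were chosen after their values were seen, with 29 or 30 CpGs in the 1 kb window each, and cover 250 bases before to 50 after the listed start (RefSeq, GRCm38.p6, 5′ to 3′ on the gene's strand). Capitals mark CpGs. The first is Cplane2, a gene of ciliogenesis (chr4:141213706-141214005, plus strand), with a window level of 1.65%. Next is Agbl4, which encodes an enzyme that trims glutamate chains from tubulin (chr4:110397448-110397747, plus strand), at 2.13%. The third is Pou5f1, the pluripotency factor OCT4 (chr17:35505782-35506081, plus strand), at 18%. The fourth is Myog, the muscle differentiation factor myogenin (chr1:134289754-134290053, plus strand), at 74.5%. The last is Spaca4, a protein of the sperm acrosome (chr7:45725767-45726066, minus strand), at 91.8%.
Cplane2: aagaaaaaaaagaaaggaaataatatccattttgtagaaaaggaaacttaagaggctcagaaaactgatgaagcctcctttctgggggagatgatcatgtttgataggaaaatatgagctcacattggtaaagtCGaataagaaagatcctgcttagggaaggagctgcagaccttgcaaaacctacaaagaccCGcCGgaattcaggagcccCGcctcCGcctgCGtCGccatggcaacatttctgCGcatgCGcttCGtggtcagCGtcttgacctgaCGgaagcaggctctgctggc
Agbl4: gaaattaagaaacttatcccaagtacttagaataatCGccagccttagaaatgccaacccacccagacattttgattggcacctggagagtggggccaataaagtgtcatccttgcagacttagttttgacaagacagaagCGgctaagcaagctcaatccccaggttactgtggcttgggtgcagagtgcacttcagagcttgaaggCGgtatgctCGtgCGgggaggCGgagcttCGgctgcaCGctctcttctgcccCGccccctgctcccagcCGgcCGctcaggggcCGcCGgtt
Pou5f1: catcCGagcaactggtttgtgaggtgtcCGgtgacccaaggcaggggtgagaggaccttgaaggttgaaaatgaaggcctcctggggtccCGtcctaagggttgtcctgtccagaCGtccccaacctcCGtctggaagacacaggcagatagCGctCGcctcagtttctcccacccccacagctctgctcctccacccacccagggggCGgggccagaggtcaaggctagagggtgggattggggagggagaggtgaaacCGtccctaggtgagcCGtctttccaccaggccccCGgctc
Myog: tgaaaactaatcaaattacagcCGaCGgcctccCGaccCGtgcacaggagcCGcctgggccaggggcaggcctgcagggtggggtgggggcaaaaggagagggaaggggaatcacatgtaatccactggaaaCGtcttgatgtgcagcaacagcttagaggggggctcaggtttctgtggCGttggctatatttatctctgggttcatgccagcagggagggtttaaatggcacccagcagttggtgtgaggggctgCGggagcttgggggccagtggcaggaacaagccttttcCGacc
Spaca4: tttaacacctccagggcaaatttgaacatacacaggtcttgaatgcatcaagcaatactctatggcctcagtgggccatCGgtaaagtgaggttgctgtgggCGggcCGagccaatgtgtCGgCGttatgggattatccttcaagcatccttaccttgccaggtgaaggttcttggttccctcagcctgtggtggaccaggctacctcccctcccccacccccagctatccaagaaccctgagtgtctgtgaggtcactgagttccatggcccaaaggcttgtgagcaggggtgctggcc

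Within the 300 bases printed, the number of CpGs was not the same although the 1 kb windows were matched. Spaca4 held 5 CpGs there and Myog 9, against 11 in Pou5f1, 12 in Cplane2 and 13 in Agbl4. The level in these 300 bases was 1.09% (exact 95% interval 0.133 to 3.89, 183 read counts) in Cplane2, and 4.21% (1.16 to 10.4, 95 counts) in Agbl4. It was 20.2% (13.2 to 28.7, 114 counts) in Pou5f1, 72.5% (58.3 to 84.1, 51 counts) in Myog and 93.3% (77.9 to 99.2, 30 counts) in Spaca4. The order of the promoters was the same in the 300 bases and in the 1 kb window.

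The depth behind a window was moderate. Over the autosomes, 89.9% of CpGs had a read and the median was 6 reads per CpG, both strands summed. The members held 880260 read counts over 92341 CpGs, of which 98.0% were covered. A member had 20 to 691 read counts, with a median of 259, and the median width of its exact 95% interval was 9.87 points. As a check within the same table, the level from the plus strand alone and that from the minus strand alone differed by a median of 5.14 points, and by 13.7 points at the 90th percentile, over the 3206 members with reads to compare.

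The members had a distribution with 2 modes. Their median level was 22.8% (95% interval over promoters 21.6 to 24.1) with quartiles of 11.9% and 65.8%, against 73.7% in CpG-poor and 5.51% in CpG-rich windows. Of the members, 44.8% (43.1 to 46.5) were under 20% methylated and 28.0% (26.5 to 29.6) were over 60%. A smoothed density (Gaussian kernel, bandwidth 3 points) had its lower mode at 10.6%, its upper mode at 76.9% and its lowest point between them at 57.2%, where it was 7.51 times lower than at the lower mode and 2.85 times lower than at the upper mode. The valley between the modes was broad: the lowest point lay between 47.4% and 51.8% under 8 of 18 other settings, given in the closing section. A beta-binomial mixture with 2 components, which allows for counting error, put 64.1% of members in a component with a mean of 16.4% (SD 8.71 points) and 35.9% in another with a mean of 70.5% (SD 13.0).

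To count promoters beyond counting error, a window was called low when its whole 95% interval was under 20%, high when it was over 60%, and intermediate when it lay between these limits. By this rule 1128 members (34.8%) were low, 510 (15.7%) intermediate and 778 (24%) high, and 828 were not resolved. Over all measured autosomal promoters, 59.6% were low, 5.16% intermediate and 19.0% high. The class thus holds 510 of the 968 intermediate calls of the autosomes. The share of intermediate calls was 6.99% in CpG-poor windows and 0.929% in CpG-rich windows. Read counts differ between the classes, with a median of 259 in members, 82.0 in CpG-poor and 800 in CpG-rich windows, and the part of depth in these shares was not tested.

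**Figure D1:**
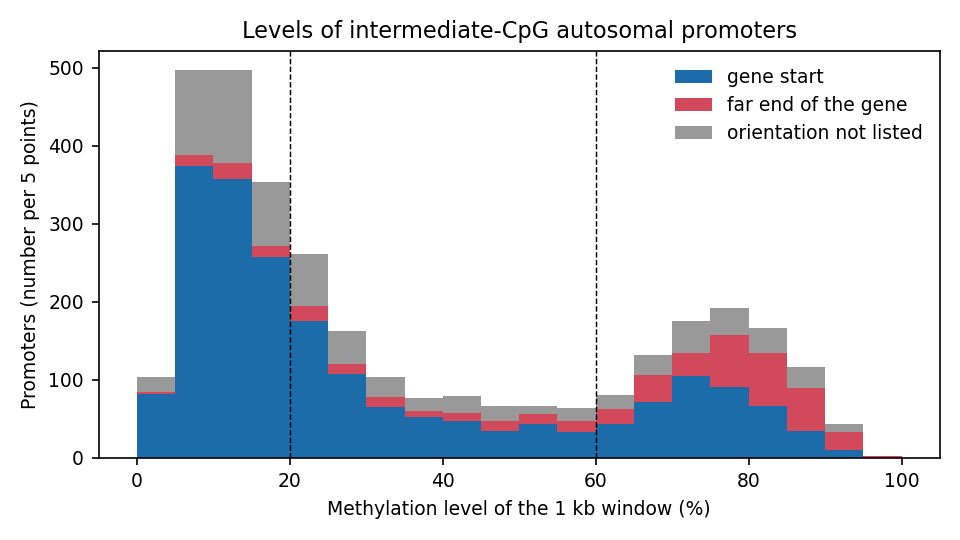
Number of intermediate-CpG promoters by methylation level (horizontal axis, %, in bins of 5 points), stacked by whether the window lies at the gene start (blue), at the far end of the gene (red) or at an end of unlisted orientation (grey); dashed lines mark 20% and 60%. The peak below 20% is mostly gene starts, and the peak between 70% and 85% holds many far ends.

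The denser end of a gene is not always where transcription starts, and this split the class. A RefSeq promoter table gave the orientation of 2500 members: 2051 windows were at the gene start and 449 (18%) at the far end, where transcripts end. Start here means the upstream end of the gene in the gene table, and the listed transcript start can lie further inside. For 744 members it was not listed, 110 of them on chromosome 18. CpG positions in 1638 listed promoter sequences were compared with the table, and in all 1638 the CpG number was equal or 1 apart at the edge.

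Windows at the start had a median level of 18.7% (17.8 to 19.9), against 72.9% (69.5 to 76.2) at the far end. Over 60% methylated were 20.5% of starts and 65.9% of far ends, a difference of -45.4 points (95% interval -50 to -40.6, over promoters). Among starts, 40.8% were called low, 15.6% intermediate and 17.1% high. Far ends made up 42.8% (38.9 to 46.8) of the 612 high calls with a listed orientation, 16.2% of the 382 intermediate calls and 4.46% of the 875 low calls. Starts alone still had 2 modes, at 10.4% and 73.8% with the lowest point at 47.7%, and the mixture placed 28.3% of them in the upper component with a mean of 67.5%. Far ends had their main mode at 81.7% and a minor one at 21.8%.

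Of the 50 far ends under 20%, 16 held the listed start of another gene. Such a start lay in 26 far-end windows in all, and their median level was 13.9%, with 61.5% (40.6 to 79.8) under 20%. The other 423 far ends had a median of 74.8%, with 8.04% under 20%. For windows at the start, the medians lay closer together, at 15.6% in 159 windows with a start of another gene inside and 19.0% in 1892 without. Members with the listed start within 500 bp of the gene end numbered 1638 and had a median of 18.2%, against 19.9% in the 413 whose listed start was further away.

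Genes with 20 to 39 CpGs at both ends allow the start and the far end of the same gene to be compared within 1 range of CpG number. There were 383 such genes, 279 of them with a listed orientation, 24 of these shorter than 1 kb so that the windows overlap. The start was the denser end in 194 of the 279, and the ends were not matched for CpG number within a gene. The start had a median of 25% and the far end one of 74.2%. The start was lower in 207 genes (74.2%), and the median of the paired differences was -15.4 points. It was lower by more than 40 points in 103 genes and higher by more than 40 points in 10. With calls, 49 genes had a low start and a high far end, 4 had a high start and a low far end, 51 were high at both ends and 8 were low at both.

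Phkg2, the catalytic subunit of phosphorylase kinase in liver and testis, showed the widest gap at a start of this kind, with 1.79% (0.658 to 3.85, 336 counts) at the start at chr7:127572845-127573845 and 90.9% at the far end. Alg3, a mannosyltransferase of N-glycosylation, had 4.87% (2.86 to 7.68, 349 counts) at the start and 88.8% at the far end. In Apobec3, a cytidine deaminase that restricts retroviruses, the far end was the denser one and thus the member. Its start had 2.17%, against 88.3% (84.2 to 91.7, 309 counts) at the far end at chr15:79917718-79918718. Lars, a leucyl-tRNA synthetase whose orientation was not listed, had 6.73% at the denser end and 92.7% at the other.

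**Figure D2:**
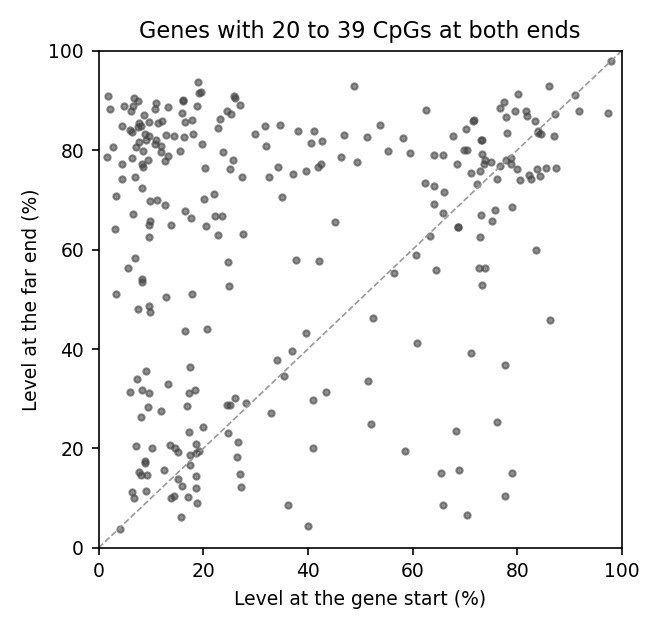
Methylation level at the gene start (horizontal, %) and at the far end (vertical, %) of the 279 genes with 20 to 39 CpGs at both ends and a listed orientation; each point is 1 gene and the dashed line marks equal levels. Most points lie above the line: the start was lower in 207 genes.

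Genes whose denser end was the far end also tended to have methylated starts, which are the CpG-sparser end by construction. In 417 of these genes with a measured start, the start had a median of 68.3%, with a median of 14.0 CpGs, and the far end one of 71.8%. Of these starts 8.63% were under 20%. CpG-poor autosomal windows had a median of 73.7%, with 2.65% under 20%, and the part of CpG number was not tested. In 1710 members measured at the start with a measured far end, the start had a median of 19.3% and the far end one of 78.8%, with a median of 12 CpGs at the far end.

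Level was lower at higher CpG number over the range of the class. Medians were 61.3% for 20 to 24 CpGs (1086 promoters), 26.7% for 25 to 29 (786), 15.5% for 30 to 34 (667) and 12.1% for 35 to 39 (705). The share over 60% followed the same order, at 50.6%, 29.1%, 13.6% and 5.39%. The median with 20 to 24 CpGs exceeded that with 35 to 39 CpGs by 49.1 points (44.5 to 52.6). The upper mode of the smoothed density stayed between 70.7% and 77.2% in the 4 bins. The mixture weight of the upper component was 54.7%, 34.2%, 21.6% and 10.2%, and its mean also fell, at 75.1%, 73.3%, 63.2% and 58.7%. With 35 to 39 CpGs, only 38 promoters were over 60%, so the upper mode of that bin rests on few windows. The lower mode was at 19.5% with 20 to 24 CpGs and at 12.1%, 10.6% and 9.8% in the denser bins.

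Windows with exactly 20 CpGs had a median of 65.3% and those with 19, just outside, 67.0%. Windows with exactly 39 CpGs had a median of 10.3% and those with 40, just outside, 9.99%. Depth moved with CpG number: the median window had 191 read counts in the sparsest bin and 378 in the densest, while reads per CpG were 8.80 and 10.2.

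The same order held within starts and within far ends. Starts had medians of 47.2%, 22.3%, 14.7% and 11.9% in the 4 bins, from 605, 508, 445 and 493 promoters. Far ends had 77.8%, 72.6%, 62.5% and 21.3%, from 234, 105, 58 and 52. Between the sparsest and the densest bin the median of starts thus differed by 35.4 points. The share over 60% was 41.0% at starts and 81.2% at far ends with 20 to 24 CpGs. With 35 to 39 CpGs it was 4.46% (2.82 to 6.68) at starts and 17.3% (8.23 to 30.3) at far ends, intervals that do not overlap.

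**Figure D3:**
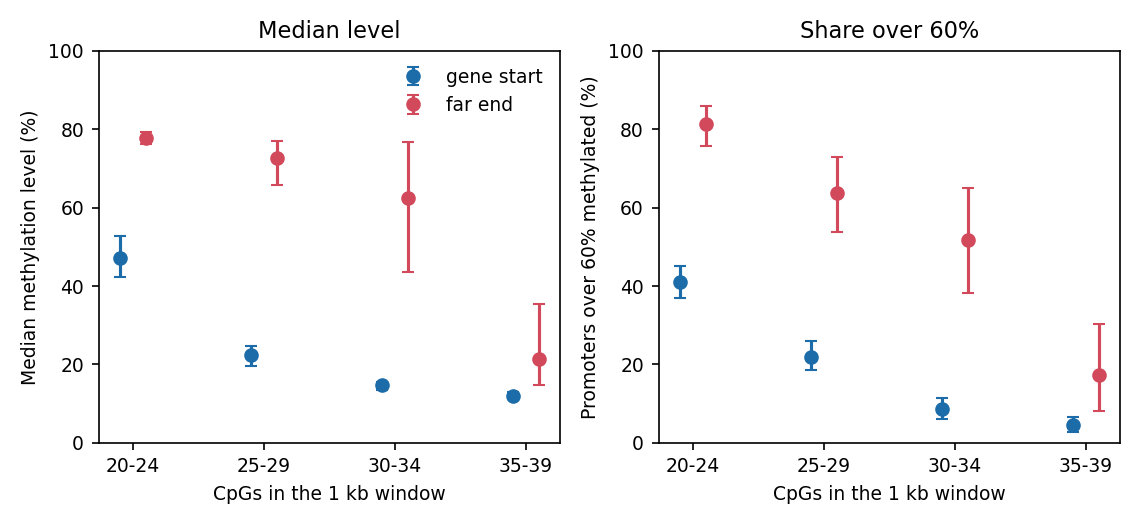
Median methylation level (left, %) and share of promoters over 60% methylated (right, %) by CpGs in the 1 kb window, for gene starts (blue) and far ends (red). Bars are 95% intervals, from order statistics for medians and exact binomial for shares. Starts lie below far ends in all 4 bins of both panels.

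Around the gene start, the 3 calls differed in the shape of the methylation profile. In the 836 starts called low, pooled levels in 100 bp bins were 55.8% at 2 kb before the gene, 28.1% at 500 bp before, 7.26% just after the start and 42.2% at the end of the 2 kb inside. In the 320 called intermediate, they were 59.0% at 2 kb before, still 58.3% at 500 bp before, 31.1% just after the start and lowest, at 20.7%, 800 bp inside the gene. The 350 called high were at 73.6% at 2 kb before, 75.8% just after the start and 65.7% at 2 kb inside. In the 288 high starts with the listed start within 500 bp, these levels were 73.6%, 75.5% and 74.6%. The 689 low starts of that kind were at 50.1% at 2 kb inside. The value of 20.7% is over all 320 intermediate starts, including those whose listed start lies elsewhere. In the 235 with the listed start within 500 bp, the level was 67.4% at 1 kb before, 29.1% just after the start and 32.4% at 800 bp inside, and the lowest bin, at 29%, was the 100 bp before the start. In the 262 far ends called high, levels were 76.4% at 2 kb before the gene end, 80.4% just after it and 70.6% at 2 kb beyond.

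The sides of the window were compared where each had at least 50 read counts. In 254 starts called intermediate, the outer side (outside the gene) had a median of 45.1% and the inner side 32.5%, and the outer side was higher by more than 20 points in 109 (42.9%) and the inner in 30 (11.8%). In 606 starts called low the sides had 12.7% outside and 7.22% inside. In 238 called high they had 76.8% and 77.3%. A drop in level from the outer to the inner side was thus found in more of the intermediate starts than the reverse.

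Flywch1, a zinc finger gene, had 75% on the outer and 2.88% on the inner side of its upstream end (chr17:23774030-23775030), which gave 42.1% for the window; its listed transcript start lies 2928 bp away, outside the window. Nlrx1, an innate immune regulator at mitochondria, had 73.8% outside and 10.6% inside its start (chr9:44268099-44269099). Unc93b1, which escorts Toll-like receptors to endosomes, had 71.6% and 8.44%. Cdk2ap2 ran the other way at its far end, with 17.8% outside the gene and 77.8% inside.

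Single CpGs inside the windows were also read, where they had at least 10 counts. In windows called intermediate, 66.6% of 6673 CpGs were between 20% and 80% methylated, 29% were under 20% and 4.38% over 80%. In windows called low, 87.8% of 19504 CpGs were under 20%. In windows called high, 49.0% of 7522 CpGs were over 80%, 50.7% between and 0.279% under 20%. Most CpGs of intermediate windows were therefore themselves partly methylated in this pool. With summed strands of pooled cells from both samples, a CpG methylated in some of the cells, on 1 parental copy or in 1 of the samples cannot be told apart.

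**Figure D4:**
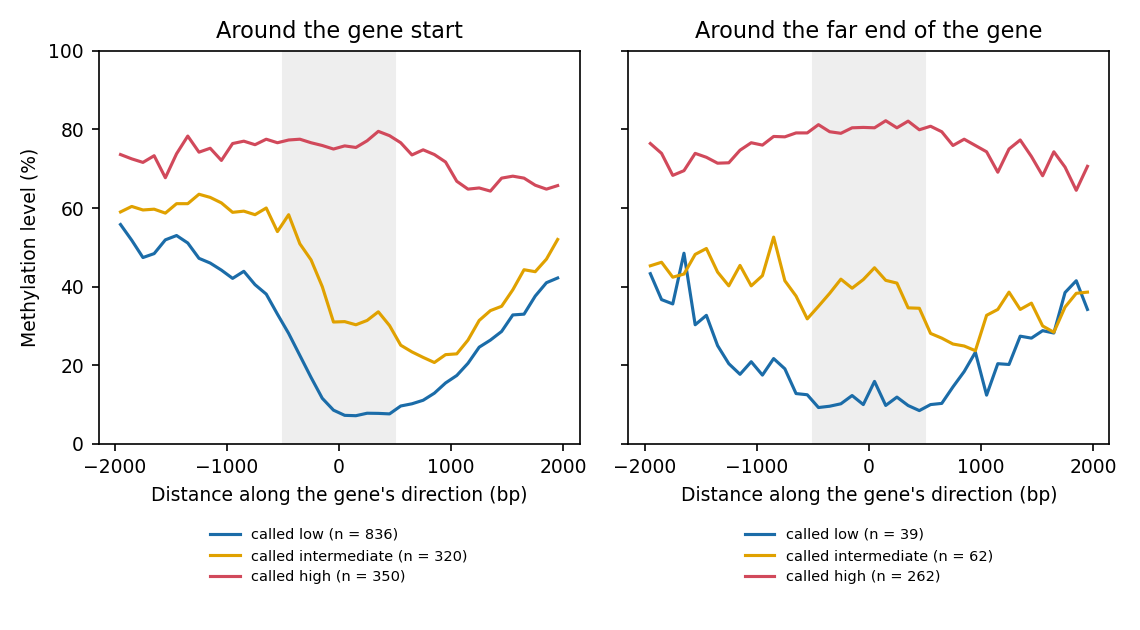
Pooled methylation level (vertical, %) in 100 bp bins from 2 kb before to 2 kb after the gene start (left) and the far end (right), along the gene's direction, for windows called low (blue), intermediate (yellow) and high (red); the shaded band is the 1 kb window that made the call. The 320 intermediate starts are at 59.0% at 2 kb before the gene and at 20.7% at 800 bp inside, where the 235 of them with the listed start within 500 bp, not drawn apart, were at 32.4%.

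Distance to other genes was taken in 4 kinds of place. Medians were 21.3% in 1000 windows more than 10 kb from any other gene, 25.1% in 1270 within 10 kb, 36.3% in 467 that touch the body or end of another gene and 16.5% in 507 that overlap the denser-end window of another gene. The share over 60% was 28.1% for windows over 10 kb away and 16.6% for overlapping windows, a difference of 11.5 points (7.12 to 15.7). It was 37.5% in windows touching another gene. CpG number moved with place, at a median of 27.0 over 10 kb away and 30 in overlapping windows, and the difference was 7.10 points when only 25 to 34 CpGs were used.

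At starts the same difference was 7.27 points: 21.1% of 683 starts over 10 kb away and 13.8% of 304 overlapping starts were over 60%. With 20 to 24 CpGs, 41.8% (35.1 to 48.7) of starts over 10 kb away and 33.9% (22.3 to 47.0) of overlapping ones were over 60%. With 35 to 39 CpGs these shares were 5.33% and 3.96%. The intervals overlap in each of these bins, so at matched CpG number a difference by distance was not resolved at starts. Among far ends, 84.9% (76.0 to 91.5) of 93 over 10 kb away and 36.5% (25.6 to 48.5) of 74 overlapping ones were over 60%. These were not matched for CpG number, which had medians of 23 over 10 kb away and 27 in overlapping far ends. The 26 far-end windows that hold the start of another gene, described above, also bear on this, and the part of either was not tested.

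Over the 19 autosomes, the median level of members averaged 23.3% (SD 4.51 over chromosomes). It was lowest on chromosome 3, at 16.6%, and highest on chromosome 15, at 37.5%. Chromosome 15 carries a cluster of keratin genes, several of them members, and the part of this cluster in its median was not tested.

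Sequence near the start was compared between calls in the 1638 members whose listed start lay within 500 bp, over the 300 bases listed. With 20 to 24 CpGs in the 1 kb window, GC content had a median of 51.3% in 74 low and 52.0% in 160 high promoters. The ratio of observed to expected CpGs was 0.387 in low, 0.353 in 95 intermediate and 0.323 in high ones. The median number of CpGs in the 300 bases was 7 in low, 8 in intermediate and 6 in high promoters of that bin.

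A search on both strands used 11 short motifs: TATAAA (the core promoter box bound by TBP), CCAAT (bound by NF-Y), GGGCGG (the GC box of Sp factors), the NRF1 core GCATGCGC, the ETS core CCGGAAG, the E-box CACGTG, the CRE (TGACGTCA) and its part TGACG, the E2F core TTTCCCGC, the YY1 core AAGATGGCG and the ZFP57 core TGCCGC. Both forms of the CRE overlap, since TGACG lies within TGACGTCA. With 20 to 29 CpGs, GGGCGG was in 43.8% (36.9 to 51.0) of 203 low and 17.8% (13.2 to 23.2) of 242 high promoters, against 36.0% of all 31396 listed autosomal promoters. CCAAT was in 51.7% (44.6 to 58.8) of low and 35.5% (29.5 to 41.9) of high ones, against 37.3% of all. CCGGAAG was in 12.8% (8.54 to 18.2) of low and 4.55% (2.29 to 7.99) of high ones, against 9% of all. TATAAA ran the other way, in 7.39% (4.19 to 11.9) of low and 17.8% (13.2 to 23.2) of high ones, against 13.6% of all.

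The other 7 motifs had intervals that overlap between low and high promoters of this range, for example CACGTG with 4.43% and 7.44% and TGACG with 19.2% and 25.6%. Low promoters have slightly more CpGs in the 300 bases, at a median of 9 against 7 in high ones, which bears on motifs that contain a CpG such as GGGCGG and CCGGAAG; its part was not tested. CCAAT and TATAAA contain none. Of the promoters printed above, those of Agbl4, Pou5f1 and Spaca4 hold the GC box on either strand, and those of Cplane2 and Myog do not. A match is a run of letters and not a site of binding.

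Zinc finger (Zfp) genes, many of which encode KRAB repressors of retroelements, were the largest named family of low promoters. Of 115 members, 77 (67.0%) were called low, 8 intermediate and 6 high, beside 34.8%, 15.7% and 24% of all members, and their median was 11.3% (9.55 to 13.2). The 91 at the start had a median of 10.4%. Zfp282 was lowest at 2.55% (1.28 to 4.51, 432 counts) and Zfp369 highest at 91.1% (85.3 to 95.2, 146 counts). Their median CpG number was 29, close to the 28.0 of all members.

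Protocadherins, adhesion proteins that give neurons surface identity, had 31 members with a median of 14.1%, 17 called low and none high. These are not 31 separate promoters: 11 of them share a window (to within 10 bp) on chromosome 18, where genes of the gamma cluster have a common end. Counting it once left 21 windows with a median of 18.8%, of which 7 (33.3%) were called low, a share near the 34.8% of all members, 4 intermediate and none high. Over the whole class, 26 members shared a window in this way, which left 3226 distinct windows. Pcdhga5 was lowest at 8.31% and Pcdhb13 highest at 46.8% (38.8 to 54.9), which was called intermediate. Orientation was not listed for 30 of the 31 protocadherins, so their windows may lie at far ends.

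Keratins and olfactory receptors lay at the other side. Of 31 keratins, the filament proteins of epithelia, 20 (64.5%) were called high, 1 intermediate and none low, with a median of 73.1% (65.3 to 75.4). Median CpG numbers were 25 in keratins and 23 in the olfactory receptors below, while 43.2% of all members with 20 to 24 CpGs and 25.8% of those with 25 to 29 were high; the part of CpG number was not tested. The 21 keratins at the start had a median of 73.2%. Krt83, a hair keratin, was highest at 91.9% (87.7 to 95.1) and Krt8, a keratin of simple epithelia, was lowest at 16.8% (12 to 22.6, 208 counts), with 35 CpGs. Of 40 olfactory receptors, 29 (72.5%) were called high and none low, with a median of 76.7% (70.9 to 79.4); 17 were measured at the start and 16 at the far end, and those at the start had a median of 77.0%. The range was 17.3% in Olfr95 to 89.7% in Olfr784, which had 39 counts at a far end.

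Of 84 solute carriers, 25 were low, 14 intermediate and 21 high (median 24.6%), with Slc44a3 at 3.09% and Slc7a15 at 91.2%. Medians were 21.1% in 47 Tmem genes, 25.5% in 38 Ccdc genes, 25.5% in 24 potassium channels, 18% in 17 cytochrome P450 genes, 34.2% in 19 CD antigens and 48.5% in 17 interleukins and their receptors. All of these medians had intervals that include 22.8%. Predicted genes named Gm had a median of 48.4% (26.2 to 66.1) over 128 members, with 190 counts in the median window, and Riken genes one of 30.7% over 70. Cytosolic ribosomal protein genes were few here, at 11, with a median of 67.4% (15.6 to 89.5); Rpl22, the highest at 89.8%, was measured at its far end. The 6 mitochondrial ribosomal proteins were all at the start, with 5 called low and a median of 11%.

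Of 56 listed meiosis and germline genes, 15 were members: 5 were high, 5 intermediate, 1 low and 4 unresolved, with a median of 55.6% (31.4 to 75.5) beside 22.8% over all members. The calls were 33.3% high, 33.3% intermediate and 6.67% low, beside 24%, 15.7% and 34.8% of all members. Of the 15, 11 were at the start, and the other 4 had no listed orientation. Tdrd6 and Tdrd9, Tudor proteins of the piRNA pathway, had 80.9% (71.4 to 88.2, 94 counts) and 79.6% (73.5 to 84.9, 206 counts). Tdrd9 was measured at its start, while the orientation of Tdrd6 was not listed. Rec8 and Stag3, subunits of meiotic cohesin, had 10.2% (6.97 to 14.4, 283 counts) and 17.0% (11.6 to 23.6, 165 counts). The listed transcript start of Stag3 lies 7995 bp from its window centre, and that window overlaps the denser-end window of another gene. The members of this list thus spanned both modes.

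Genes named for testis expression (Tex, Spata, Tssk, Spaca and Tdrd) had 24 members, 14 of them high, 2 intermediate and 4 low, with a median of 69.5% (20.1 to 79.6). Of the 14 at the start 6 were high, with a median of 56.6%, and 6 others were at far ends. Spaca4 was highest at 91.8% (88.0 to 94.6, 291 counts) and Spata13 lowest at 7.12%. Some stand in both lists. Of 30 late sperm genes 15 were members, with 6 high, 4 intermediate and 3 low and a median of 46.9% (19.2 to 75.6). This interval and that of the testis-named genes include 22.8%, the median of all members. Of all members 24% were high, 15.7% intermediate and 34.8% low. Among the late sperm members 9 were at the start, with 3 high, 3 low and a median of 39.7%. A further 4 were at far ends. Tssk2, a kinase of spermatids, had 84.3% (79.7 to 88.2) and Prm2, a protamine that packs sperm DNA, 78.9% (72.8 to 84.2). Catsper2, a subunit of the sperm calcium channel, had 4.08% (2.47 to 6.29) and Dkkl1 13.5% (10.3 to 17.2). The listed transcript start of Catsper2 lies 806 bp from its window centre, and that window overlaps the denser-end window of another gene. Of 21 oocyte genes 9 were members, with 4 high, 1 intermediate and none low. The 5 at the start had a median of 62.3%, with 1 of them high. The median CpG number of the oocyte members was 24, and that of the late sperm members was 25. Of all members with 20 to 24 CpGs 43.2% were high, and the part of CpG number was not tested. Padi6, needed for cytoplasmic lattices of the egg, had 83.4% at its far end and Zp1, a zona pellucida protein, 76.1%. Neither Zp1 nor Mos had a listed orientation. Mos, the kinase of meiotic arrest, had 24.1% (19.3 to 29.5) and Ooep 19.9% (15 to 25.7).

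Of 41 listed imprinted genes 7 were members, and 6 were called intermediate, none low and none high, beside 15.7% intermediate over all members. All 6 were at the start. Zdbf2 had 53.6% (48.1 to 59.0, 334 counts), Snurf 43.3% (36.9 to 50, 233 counts) and Zim1 29% (24.4 to 34, 362 counts). The others were Cdh15 at 32.0%, Htr2a at 31.1% and Mest at 29.2%. Kcnk9, a potassium channel with an unlisted orientation, was lowest at 17.0% (12.7 to 22.1) and unresolved. Htr2a, a serotonin receptor, is also in the neuronal list, and 24 of the listed genes were in the CpG-rich class.

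Of 32 pluripotency and formative genes 8 were members, with 2 low, 2 intermediate, 1 high and 3 unresolved and a median of 19.4%. Fgf5, Dnmt3b, T and Eomes, other markers of the epiblast and streak, were not members. Lin28a, an RNA-binding protein of pluripotent cells, had 7.94% (5.30 to 11.3, 340 counts) and Otx2, a factor of the formative epiblast, 13.3% (8.50 to 19.4, 166 counts). Pou5f1 had 18% (14.2 to 22.2, 378 counts) and its far end 81.1%. Dppa5a, a gene of naive pluripotent cells with no listed orientation, had 40.1% (33.9 to 46.5, 247 counts). Esrrb, a nuclear receptor of the naive state, had 82.6% (76.9 to 87.5), but this window is at its far end, and its start had 51.3%.

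Of 28 primitive streak and early lineage genes 6 were members. Nodal, the ligand that patterns the epiblast, had 7.86% (5.15 to 11.4, 318 counts). Hand1 had 17.5%, Lefty1, a Nodal inhibitor, 22% (17.5 to 27.1), Tbx6, a factor of paraxial mesoderm, 33.9% (28.9 to 39.2) and Lefty2 58.9% (53.1 to 64.5). Cubn, an endocytic receptor, had 67.0% at its far end and 31.5% at its start. The neighbouring Lefty genes, with 22 and 21 CpGs, thus had intervals that do not overlap, while their orientation was not listed. That of Hand1 was not listed either.

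Genes of muscle, blood, liver, epidermal and neuronal cells, which do not exist at this stage, were read by tissue. Beside them stand all members, with 24% called high and 34.8% low. The muscle, blood cell and liver members were CpG-sparse within the class, with median CpG numbers of 23, 23 and 24, and of all members with 20 to 24 CpGs 43.2% were high and 10.5% low, with a median of 61.3%. The part of CpG number in these lists was not tested. Of 13 muscle members 7 were high, 2 intermediate and 2 low, with a median of 68.7%. The 6 at the start had a median of 71.6%, and 3 were at far ends. Mb, myoglobin, had 87.1% (82.4 to 90.9, 263 counts) and Neb, nebulin, 80.8%, against 7.11% (4.27 to 11, 253 counts) in Ryr1, the calcium release channel, and 14.0% in Actn3. The orientation of Neb and Actn3 was not listed. Of 13 blood cell members 6 were high and 2 low, with a median of 60.5%. The 10 at the start had a median of 64.8%, and 3 were at far ends. Elane, neutrophil elastase, had 77.1% at its far end and Zap70, a T cell kinase, 75.4%, against 13.3% (10.4 to 16.7, 473 counts) in Ikzf1 and 14.6% in Cd34. The listed transcript start of Ikzf1 lies 963 bp from its window centre, and that window overlaps the denser-end window of another gene.

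Of 8 liver members 4 were high, 3 intermediate and 1 low, with a median of 61.1%. The 5 at the start had a median of 52.3%, and 2 were at far ends. Tat, tyrosine aminotransferase, had 84.7% (74.3 to 92.1, 72 counts) and Cyp8b1, a bile acid enzyme, 85.4% at its far end. Apoe had 35.5% (29.7 to 41.6) and Apoa2, a lipoprotein of liver and yolk sac, 13.4% (9.52 to 18.2). The listed transcript starts of Tat and Apoe lie 4358 bp and 2122 bp from their window centres. Of 13 epidermal members, several of them keratins, 6 were high, 4 intermediate and 1 low, with a median of 51.3%. The 6 at the start had a median of 41.0%, with 2 of them high, and 6 had no listed orientation. Krt15, of unlisted orientation, and Krt5 had 76.8% and 75.4%, and Sfn 16.0%. Lor, loricrin, had 8.85% at its far end, with 33 CpGs, and 79.4% (62.1 to 91.3) at its start, which held only 5 CpGs.

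Of 17 neuronal members 5 were low, 3 intermediate and 2 high, with a median of 22.5% (13.0 to 30.4), close to that of all members. Syn3, a synapsin whose orientation was not listed, had 7.27% (4.76 to 10.5) and Slc17a6, the vesicular glutamate transporter, 8.23% (5.49 to 11.8). Th, tyrosine hydroxylase, had 68.5% (62.6 to 74.0) at its start and Rbfox3, known as NeuN, 73.2% at its far end. Of 7 epithelial junction members 2 were low, 1 intermediate and 1 high, with a median of 18.5%. Epcam, an adhesion molecule of epithelia and of the epiblast, had 13.5% (9.42 to 18.5), and Prss8, of unlisted orientation, had 13.0%. Rab25 had 30.1% and Tjp3 83.2% at its far end. Of 42 housekeeping genes only Gapdh was a member, at 2.29% (0.845 to 4.92, 262 counts), as 35 were CpG-rich.

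**Figure D5:**
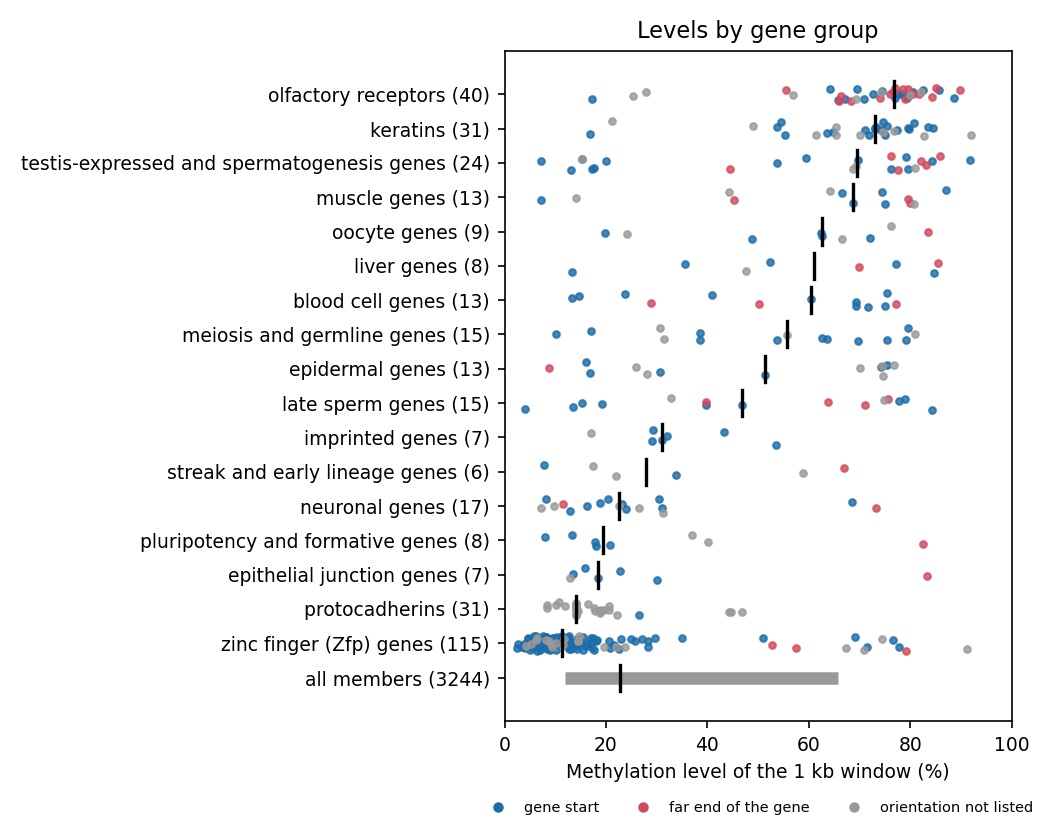
Methylation level (horizontal, %) of the members of 5 gene families and 12 gene lists with at least 6 members, with the number of members in parentheses; each point is 1 promoter, coloured by gene start (blue), far end (red) or unlisted orientation (grey), and black bars are medians. The grey band spans the quartiles of all members, 11.9% to 65.8%. Zfp genes cluster low and olfactory receptors and keratins high.

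The extremes of the class were single genes of many functions. Among members with at least 200 counts and a name other than Gm or Rik, the lowest 8 were Sar1b (a GTPase of vesicle budding from the endoplasmic reticulum) at 1.44% (0.469 to 3.33, 347 counts), Lrba at 1.59%, Cplane2 at 1.65%, Phkg2 at 1.79%, Erap1 (a peptide trimming enzyme of antigen presentation) at 1.85%, Polr1e (a subunit of RNA polymerase I) at 2.12%, Agbl4 at 2.13% and Timm21 (a mitochondrial import protein) at 2.26%. The window of Sar1b was chr11:51763163-51764163. All but Timm21, whose orientation was not listed, were at the start, and the listed transcript start of Lrba lies 1234 bp from the window centre. The highest 8 included 4 far ends, Atp13a2 at 92.8% (89.3 to 95.4, 318 counts), Sptbn5 at 92.5%, Dram1 at 92.2% and Mier2 at 91.8%. At the upstream end of Tmprss5, a membrane serine protease, the level was 91.9% (87.3 to 95.2), but its listed transcript start lies 23454 bp from the window centre. At the start were Cavin4, a caveolar protein of muscle, at 91.8% (87.5 to 95) and Spaca4 at 91.8%. Krt83, of unlisted orientation, completed them.

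The intermediate calls with the most counts had narrow intervals. Eva1b, at its far end, had 47.4% (43.4 to 51.5, 599 counts). Dnah10, a dynein heavy chain of cilia and sperm tails, had 29.2% (25.6 to 33.1, 595 counts) and Eng, endoglin, a receptor of the vessel wall, 38.7% (34.7 to 42.8, 579 counts), both at the start. Evpl, envoplakin of the skin barrier, had 25.9% (22.4 to 29.7), Bnipl 32.5% (28.6 to 36.6) and Wbp2nl, a sperm protein, 29.8% (25.9 to 33.9), all of unlisted orientation. These 6 lay between the modes by construction, since an intermediate call requires the whole interval to lie between the limits of the calls. Their narrow intervals likewise follow from choosing the calls with the most counts.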

How the data were processed

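The authors deposited read counts: for each strand of each CpG, a methylated and an unmethylated count, in 1 table without sample names, taken as the pool of both samples. The submitters' processing notes list Bowtie2 2.1.0, Bismark 0.12.5, cutadapt 1.3 and the build mm10 without saying what each was used for. Libraries were made by a protocol that adds adapters after conversion, per the series' design text; how samples were combined, which filters applied and whether duplicate reads were removed is not stated in the labels. Counts carry no molecular identifier, and a read across several CpGs counts at each, so intervals are too narrow where counts share a fragment. Unlike a value from separate samples, no value here has a replicate error, and no p-value was computed.

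Both strands were added, and a level is methylated over all counts. Gene ends came from RefSeq annotation of GRCm38.p6 (the assembly behind mm10), and orientation from its promoter table, which has none for chromosome 18. Where both ends held equal CpGs (17 members), the end with the lower coordinate was used. In 70 members the ends were under 1 kb apart. Intervals of levels and shares are exact Clopper-Pearson 95% intervals, those of medians come from order statistics over promoters, and those of differences between shares combine Wilson intervals. The interval of a mode was taken as 3 points on either side. Python 3.11.15, numpy 2.4.6, scipy 1.17.1, pandas 2.3.3 and matplotlib 3.10.9 were used, and the scripts were tested on simulated data.

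The class, its 13 gene lists, 25 symbol families and tests were chosen with earlier results of these data known. Named genes were the 8 highest and 8 lowest members with 200 or more counts, the extremes of each list and family discussed (all members of lists of up to 6), the 6 intermediate calls with most counts, and the 4 largest differences between sides of a window and between ends. The 5 printed promoters and Mest, Cdh15 and Htr2a, which complete the imprinted list, were named after their values were seen. Alternatives changed the minimums, window, CpG range, strand, weighting, choice of end, thresholds and bandwidth. The alternatives that use only annotated starts, single CpG bins, protein-coding neighbours or windows free of other starts, and those for gene families, were chosen after seeing the data.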

Additional observations from a re-analysis of the deposited data

How the results depend on the processing

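No paired analysis was possible because the deposited table has no sample columns, and for the same reason no replicate could be left out. Of 213 recomputed values, 176 stayed within the interval of the reported value and 37 moved out of it. A change of sign was possible only for the differences between groups, and 0 of those values changed sign. The causes were not tested beyond what each setting changes by construction. The median of 22.8% became 24.7% as a mean of CpG fractions, 26.7% with 1000 bp on either side, 41.9% with 15 to 39 CpGs, 20.2% with 25 to 34 CpGs, 19.8% at the annotated transcript start and 18.7% in members whose denser end is the start. The share under 20% became 41.7%, 38.1%, 32.4%, 49.6%, 50.2% and 52.3% under these same settings in the same order, and 33.9% with a threshold of 15%. The share over 60% became 40.9% with 15 to 39 CpGs, 22% with 25 to 34, 23.1% at the annotated start, 20.5% where the denser end is the start, and 21.4% with a threshold of 70%. The lower mode moved to 14.0% with 1000 bp on either side and the upper mode to 73.8% where the denser end is the start. The lowest point between the modes was the least stable: it lay at 49.1% with a read minimum of 50, 51.8% with the plus strand only, 1000 bp on either side or a bandwidth of 5 points, 48.3% with 250 bp, 47.4% with 15 to 39 CpGs, 47.5% at the annotated start and 47.7% where the denser end is the start. The difference in median between 20 to 24 and 35 to 39 CpGs was 44.5 points with 1000 bp on either side, 41.5 at the annotated start and 35.4 where the denser end is the start; a range of 25 to 34 CpGs gives no value. The difference by distance was 7.10 points with 25 to 34 CpGs, and that between start and far end was -50.1 points where the other end held under 20 CpGs, -40.2 with 20 to 24 CpGs and -12.8 with 35 to 39 CpGs; it has no value at the annotated start alone. The median of Zfp genes was 17.6% with 1000 bp on either side and 9.52% at the annotated start, and those of keratins, olfactory receptors and testis-named genes stayed within their intervals in all 15 settings each. For testis-named genes this says little: the interval ran from 20.1% to 79.6%, and the median was 56.6% at the annotated start. Leaving out Gm and Rik symbols or counting overlapping windows once removed no member of these families. Those settings could not move their medians, yet they count among the 176. Depth limits the calls: 828 of 3244 members could not be placed on 1 side of the limits at a median of 259 counts.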
